A study of Mus musculus with 5 samples.

Results

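CD8 T cells of the marrow were picked from 5 single-cell libraries by the UMIs (unique molecular identifiers, 1 per captured RNA molecule) of 8 genes. A barcode was kept when it held at least 500 UMIs and at most 10% of them came from the mitochondrial genome, and it was taken as a CD8 T cell when it held at least 2 UMIs of the T cell receptor genes Cd3d, Cd3e, Cd3g and Trbc2, at least 1 UMI of the co-receptor genes Cd8a and Cd8b1, and none of Cd4 or Siglech. In all, 804 of 29679 barcodes passed. The libraries were made from the bone marrow of C57BL/6J mice of 8 weeks, 1 mouse for each of days 0, 3, 6, 9 and 12. Every mouse, the day 0 mouse included, had received 1000 BCR-ABL1 pre-B acute lymphoblastic leukemia cells through the tail vein without irradiation, and the day 0 mouse was euthanized right after the transplant. The design therefore held no mouse without a transplant, and day and mouse cannot be told apart. With 1 mouse per day no test between days was made, and the intervals given for single days are exact 95% intervals that cover counting error only.

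CD8 T cells read peptides on MHC class I through a T cell receptor that signals through the CD3 chains, with a co-receptor made of CD8 alpha and CD8 beta chains. Naive cells recirculate between blood, lymphoid organs and marrow and carry the homing receptor encoded by Ccr7, the transcription factors encoded by Lef1 and Tcf7 and the interleukin-7 receptor. Memory cells settle in the marrow in large numbers, respond to interleukin-15 through the receptor chain encoded by Il2rb, and store messages for chemokines such as Ccl5, while effector cells make granzymes and perforin.

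The cells carried the genes that define them, several of which the gate itself used, so that their levels describe the choice and no test was made on them. Levels are given throughout as UMIs per 10000 UMIs summed over the cells of 1 library. Cd8b1 stood at 8.67, 7.29, 7.12, 5.53 and 7.57 on days 0, 3, 6, 9 and 12, Cd8a at 3.61, 3.52, 3.78, 2.91 and 3.21, and Trbc2 at 11.7, 10.8, 9.96, 7.97 and 8.36, and Cd3d was seen in 88.4% of the cells. Trac, the constant region of the T cell receptor alpha chain and no part of the gate, was found at 4.54, 3.45, 3.30, 2.69 and 3.04. Cd8b1 UMIs were present in 689 of the 804 cells and Cd8a UMIs in 522, and 115 cells held Cd8a alone, the form of the co-receptor that some other lymphocytes and dendritic cells also carry. Just inside the limits lay 53 cells with exactly 2 T cell UMIs and 186 with exactly 1 CD8 UMI. Just outside lay 79 barcodes with 1 T cell UMI, 1253 T cell barcodes without a CD8 UMI or a Cd4 UMI, and 4 with both Cd4 and CD8 UMIs.

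Part of the 804 barcodes also carried the RNA of other cells. A share of neutrophil RNA above 5%, counted over S100a8, S100a9, Camp, Ngp, Ltf and Retnlg, was found in 63 barcodes, 18, 8, 11, 20 and 6 by day. Their median neutrophil share per library was 31.6% to 34.5%, against 1.90% to 2.63% in the other CD8 T cells, and their median UMI count was 5490 to 7861 against 2308 to 3014. In barcodes with 1 to 100 UMIs, which hold free RNA, the neutrophil share was 19.0% to 28.1%. At least 2 UMIs of B cell marker genes such as Cd79a, Cd79b, Ms4a1 and Ebf1 were held by 31 barcodes. No doublet caller was run. Without either kind 716 CD8 T cells remained (333, 70, 128, 119 and 66), and results that moved in them are given both ways. The 6 NK markers summed to 10.9, 13.4, 15.6, 18.8 and 14.2 per 10000 in the 804 cells (6.96 to 11.9 in the 716) and to 68.6 to 87.0 in natural killer cells. Tyrobp stood at 5.62 to 10.2 and Fcer1g at 4.62 to 7.83, which myeloid cells share and of which free RNA held 26.2 to 34.1 and 21.0 to 25.3, while the defining receptor gene Ncr1 had 8 UMIs in all. Gamma delta T cell genes summed to 0.217 to 0.836 per 10000 and thymocyte genes to 0.159 to 0.308. The median depth of CD8 T cells was lowest at day 0, at 2377 UMIs, and was 2998, 3122, 2971 and 2610 later, with 824 to 1014 genes. The libraries held 33425695 to 43554233 UMIs each, and no barcode was shared between any 2 of them within the CD8 T cells.

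**Figure D1:**
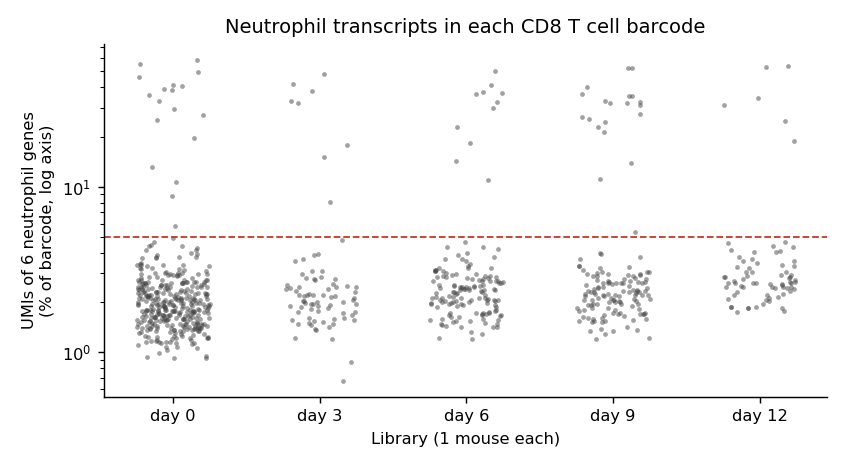
Each dot is 1 CD8 T cell barcode, placed by day and by the percent of its UMIs that came from 6 neutrophil genes (log axis), with a dashed line at 5%. Most cells lie around 2%, and a separate group of 63 lies above the line, with few barcodes just above it.

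CD8 T cells were most frequent at day 0. They made up 363 of 6259 barcodes at day 0, or 5.80% (5.23% to 6.41%), and 79 of 4870 at day 3, or 1.62% (1.29% to 2.02%). The shares at days 6, 9 and 12 were 2.43% (147 cells, 2.06% to 2.85%), 2.03% (141 cells, 1.71% to 2.39%) and 1.33% (74 cells, 1.05% to 1.67%). The day 0 interval lay above those of the 4 later mice, whose shares had no common direction with time. Among barcodes that passed the T cell part of the gate, the CD8 share was 49.0% (45.3% to 52.7%) at day 0 and 32.0%, 35.9%, 31.7% and 25.9% (20.9% to 31.4%) later. In the set without other lineages' RNA these shares were 53.2%, 40.5%, 42.5%, 35.5% and 32.0%. In the same set of 716 cells the shares of all barcodes were 5.32%, 1.44%, 2.12%, 1.71% and 1.19%. A smaller share of CD8 T cells and a larger number of other cells in the suspension cannot be told apart here.

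**Figure D2:**
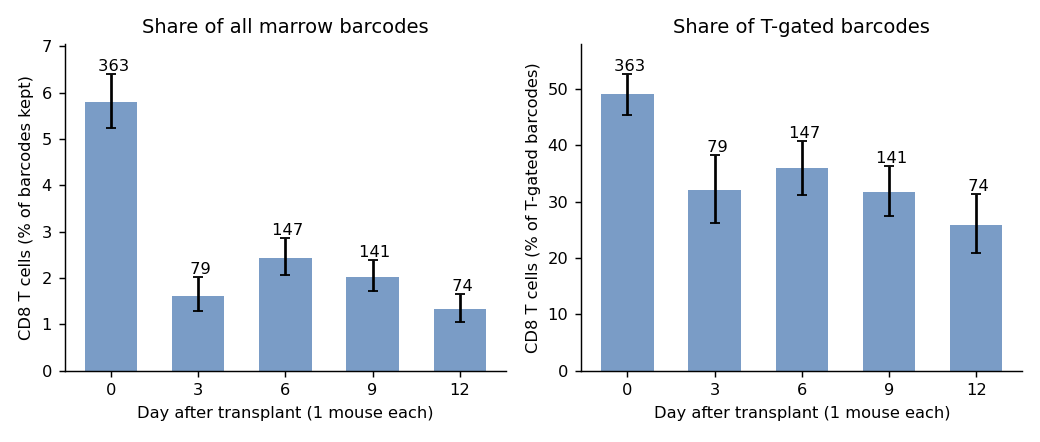
Bars give CD8 T cells by day, 1 mouse per day, as a percent of all barcodes kept (left) and of barcodes that passed the T cell part of the gate (right), with exact Clopper-Pearson 95% intervals and the number of CD8 T cells above each bar. The day 0 bars, 5.80% and 49.0%, stand above the later bars, which lie between 1.33% and 2.43% on the left and between 25.9% and 35.9% on the right.

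The CD8 T cells were a mixture of cells with and without Ccl5, the chemokine that memory CD8 T cells keep as a stored message. Ccl5 lies on chromosome 11 (mm10, chr11:83525778-83530518, minus strand). A Ccl5 UMI was found in 38.3% (33.3% to 43.5%), 41.8%, 38.8%, 48.2% and 36.5% of the CD8 T cells by day, in 9.6% to 11.9% of B cells, which should lack it, and in 91.3% to 97.9% of natural killer cells. The median depth of the B cells was 1676.5 to 3066 UMIs and that of the CD8 T cells 2377 to 3122. After cells were thinned to 1000 UMIs, which left out 14 shallower CD8 T cells at day 0 and 1 at day 9, the CD8 shares were 26.9%, 35.4%, 24.5%, 42.1% and 25.7%. At least 5 Ccl5 UMIs were held by 72, 26, 31, 43 and 15 cells, and up to 194 by a single cell, so the positive cells ranged from free RNA levels to strong expression.

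To see what else parted the cells, UMIs of cells with and without a Ccl5 UMI were summed in each library and compared with edgeR across the 5 mice, with the mouse as a term. Of 2438 genes tested, 25 were higher in the cells with Ccl5 (1.03% of those tested) and 17 were lower (0.697%), at a Benjamini-Hochberg adjusted p below 0.05. The higher genes included 3 of 4 tested killer lectin-like receptors and 6 of 14 tested genes of the memory list, and the lower genes 6 of 17 of the naive list. Cytokine receptors (1 higher and 2 lower of 8) and homing and chemokine receptors (1 higher and 2 lower of 11) were called in both directions. More UMIs were counted in the cells with Ccl5 (medians of 2846 to 4320 per library against 2040 to 2753), and 32 of them against 31 of the others held over 5% neutrophil RNA.

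Killer lectin-like receptors showed the widest gap. Klrk1, which encodes the activating receptor NKG2D, stood at 1.48, 0.832, 0.661, 0.870 and 1.37 in cells with Ccl5 and at 0.0186, 0, 0, 0.0722 and 0.0718 in cells without it. Every library with Ccl5 lay above every library without, and the log2 fold change was 5.08 (SE 0.42, adjusted p = 9.47e-06). Klra7, an Ly49 receptor gene, had 94 UMIs with Ccl5 against 2 without (ratio 51.3, 13.8 to 430; adjusted p = 2.96e-05), and Klre1 had 101 against 3 (ratio 36.8, 12.2 to 181; adjusted p = 3.85e-05). Of the 4 receptors of this list that could be tested 3 were higher. Reads of the near-identical Klra genes may have been split between them.

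Genes of the memory list were higher as well. Xcl1, a chemokine that draws cross-presenting dendritic cells, was measured at 1.18, 1.78, 1.11, 1.46 and 1.14 with Ccl5 and at 0.148, 0, 0.128, 0 and 0.144 without (log2 fold change 3.69, SE 0.39, adjusted p = 6.49e-05). Il2rb, the shared receptor chain for interleukin-2 and interleukin-15, stood at 1.26, 1.54, 0.800, 1.01 and 1.25 against 0.353, 0.423, 0.320, 0.216 and 0.287 (log2 fold change 1.85, SE 0.22, adjusted p = 0.000231). In both genes the groups did not overlap. Cxcr3, a chemokine receptor of memory and effector cells, was 0.538 ± 0.123 with and 0.104 ± 0.104 without (SD, n = 5 libraries; log2 fold change 1.92, adjusted p = 0.0215). Ly6c2, a surface protein gained by memory cells, was 14.3 ± 1.75 against 5.47 ± 1.08 (log2 fold change 1.41, SE 0.12, adjusted p = 9.47e-06), and it is also high in free RNA, at 14.4 to 22 in barcodes with 1 to 100 UMIs. Reads of Ly6c2 can be shared with its near copy Ly6c1. Ctla2a, a protease inhibitor gene, was 2.59 ± 0.457 against 0.414 ± 0.247 (log2 fold change 2.52, adjusted p = 2.96e-05). In the memory list 6 of the 14 genes tested were higher and none lower, with a median log2 fold change of 1.03 against 0.01 over all genes.

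Killing genes followed in part. Nkg7, a protein of cytotoxic granules, stood at 9.14, 9.33, 8.94, 6.72 and 10.7 with Ccl5 and at 5.14, 5.15, 4.0, 3.97 and 4.59 without, a log2 fold change of 0.98 (SE 0.10), so it was well expressed on both sides. Cst7, a cathepsin inhibitor of the same granules, was the other of the 5 tested cytotoxic genes that rose (log2 fold change 1.03), a call that was lost without day 0 or day 9. Granzyme and perforin messages did not pass the filter of the test on low counts. Of 121 Gzma UMIs 113 lay in cells with Ccl5. All 19 Gzmk UMIs lay in cells with Ccl5, as did 58 of 59 Gzmm UMIs, and Prf1, which encodes perforin, had 11 UMIs in all 804 cells.

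Naive cell genes were lower in the cells with Ccl5. Lef1 stood at 1.59, 1.01, 1.67, 1.18 and 1.14 with Ccl5 and at 4.16, 3.03, 3.84, 2.20 and 2.23 without (log2 fold change -1.20, adjusted p = 8.55e-05), with no overlap between the groups. Dapl1, a gene expressed by naive CD8 T cells, was 1.67 ± 0.898 against 4.22 ± 0.988 (log2 fold change -1.28, adjusted p = 0.00123). Il7r, the interleukin-7 receptor chain, was 1.17 ± 0.369 against 2.30 ± 0.493 (log2 fold change -0.97, adjusted p = 0.0018). The homing receptor genes Ccr9 and Ccr7 moved the same way, with log2 fold changes of -2.59 (adjusted p = 0.00234) and -1.02 (adjusted p = 0.0284), and so did Il6ra, a chain of the interleukin-6 receptor (-1.91, adjusted p = 0.0018). Ccr7 was higher with Ccl5 in 1 of the 5 libraries, the others named here in none, and its call was lost without day 0, 6 or 9. In the naive list 6 of 17 genes tested were lower and none higher (median log2 fold change -0.49). Cd8b1 was lower too (5.36 ± 1.19 against 9.05 ± 2.16), a gene that the gate used and that therefore only describes the cells. Among the 8 interferon-stimulated, 12 MHC class I, 11 mitochondrial and 6 neutrophil genes tested none was called in either direction, though the neutrophil gene Camp was lower (log2 fold change -0.21) in the cells without other lineages' RNA, and of 18 T cell receptor and signalling genes Trac alone was higher (log2 fold change 0.48), a call that leaving out any 1 mouse ended. Without the 88 barcodes that held other lineages' RNA, 41 genes were higher and 37 lower, 21 and 13 of them shared with the calls above, and leaving out 1 mouse left 14 to 22 higher and 5 to 17 lower (14 higher without day 0, 6 or 9, and 7, 5 and 10 lower without these).

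**Figure D3:**
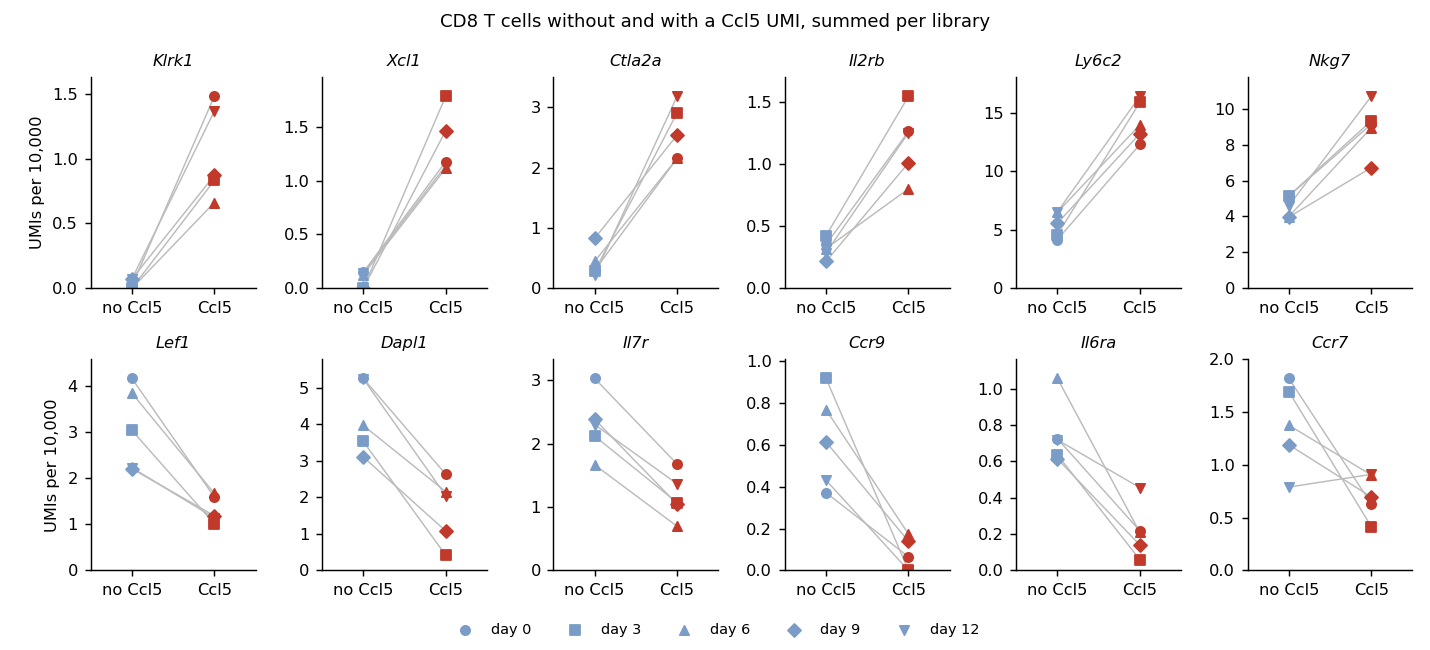
Each panel gives the level of 1 gene, in UMIs per 10000 summed UMIs, in CD8 T cells without and with a Ccl5 UMI, and lines join the sums of the same library. In the upper row, led by Klrk1 and Xcl1, all 5 lines go up, and in the lower row, Lef1 to Ccr7, they go down except for 1 line of Ccr7.

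The stretches before the transcription start show how the promoters of genes of both kinds read. The windows below hold the 250 bases before the RefSeq start (GRCm38.p6), printed 5' to 3' on the strand of the gene, for genes chosen to show both directions. Capitals mark matches, on either strand, to TGTGGT, the core bound by RUNX factors, or AGGTGT, the core bound by T-box factors. CTTTGA, the core bound by TCF and LEF factors, was searched too and has no match in these windows. Nkg7 (chr7:43436888-43437137, plus strand), Xcl1 (chr1:164935523-164935772, minus strand), Cxcr3 (chrX:101734148-101734397, minus strand) and Klrk1 (chr6:129623865-129624114, minus strand) were higher with Ccl5. Dapl1 (chr2:59484403-59484652, plus strand) and Il7r (chr15:9529877-9530126, minus strand) were lower.
Nkg7: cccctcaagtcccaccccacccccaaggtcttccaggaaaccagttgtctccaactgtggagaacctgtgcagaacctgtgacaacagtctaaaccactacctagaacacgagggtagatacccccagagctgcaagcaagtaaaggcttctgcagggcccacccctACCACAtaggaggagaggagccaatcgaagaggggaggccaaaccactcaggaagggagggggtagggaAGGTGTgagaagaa
Xcl1: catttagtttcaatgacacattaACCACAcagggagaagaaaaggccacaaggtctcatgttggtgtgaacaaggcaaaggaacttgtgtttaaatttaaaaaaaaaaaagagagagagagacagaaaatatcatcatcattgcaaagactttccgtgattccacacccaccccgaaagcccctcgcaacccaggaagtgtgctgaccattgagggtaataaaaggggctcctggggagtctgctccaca
Cxcr3: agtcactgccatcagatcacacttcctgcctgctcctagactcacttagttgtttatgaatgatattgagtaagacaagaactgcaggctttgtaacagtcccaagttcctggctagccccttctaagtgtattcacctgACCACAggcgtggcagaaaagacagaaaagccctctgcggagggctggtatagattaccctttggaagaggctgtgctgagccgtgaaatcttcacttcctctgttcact
Klrk1: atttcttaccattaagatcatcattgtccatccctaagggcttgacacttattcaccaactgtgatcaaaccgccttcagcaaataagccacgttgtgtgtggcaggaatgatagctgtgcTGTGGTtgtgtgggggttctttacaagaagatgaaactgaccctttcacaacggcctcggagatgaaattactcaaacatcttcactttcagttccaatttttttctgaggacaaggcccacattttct
Dapl1: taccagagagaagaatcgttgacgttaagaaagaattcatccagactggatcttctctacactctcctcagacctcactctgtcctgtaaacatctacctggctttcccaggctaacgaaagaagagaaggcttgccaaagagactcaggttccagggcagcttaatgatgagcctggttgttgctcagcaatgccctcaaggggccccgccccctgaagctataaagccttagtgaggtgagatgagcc
Il7r: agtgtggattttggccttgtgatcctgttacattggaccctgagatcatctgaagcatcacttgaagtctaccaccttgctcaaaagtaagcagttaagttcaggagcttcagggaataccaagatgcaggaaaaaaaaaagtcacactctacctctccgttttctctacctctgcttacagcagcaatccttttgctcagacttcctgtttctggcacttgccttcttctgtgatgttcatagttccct

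The RUNX core began 83 bases before the start in Nkg7, which also held a T-box core 14 bases before it, 227 in Xcl1, 110 in Cxcr3 and 129 in Klrk1, and no match was found for Dapl1 and Il7r. Of the 25 higher genes 16 had a window in the RefSeq table, and 10 of these (62.5%) held TGTGGT, among them Ly6c2, Klre1, Gimap4, Gimap7 and Cst7. The 17 lower genes had 12 windows, of which 2 (16.7%) held it. The share was 13.7% over the 1880 tested genes with a window and 14% over all 32851 windows. For CTTTGA the counts were 1 of 16 and 5 of 12 (41.7%), Lef1 among the latter, against 12.7% of the tested genes, and for AGGTGT 1 of 16 and 3 of 12 against 10.4%. A match describes letters and is no evidence of binding, and neighbouring genes of 1 family such as Klre1 and Klrk1 may share sequence. Ccl5, Cd8b1, Il2rb and Ccr7 had no window in the table.

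CD8 T cells were then set beside CD4 T cells, taken by the same gate with at least 1 Cd4 UMI and no CD8 UMI. Only 72 barcodes passed (17, 5, 25, 18 and 7), with sums of 12061 to 122420 UMIs per library against 227190 to 998226 for CD8, so low genes of CD4 T cells were hard to measure. Of 1616 genes tested, the 8 genes of the gate left out, 126 were higher in CD8 T cells (7.8%) and 29 lower (1.79%). By symbol 79 of the 126 higher genes encode ribosomal proteins, of 82 such genes tested, a count made after the values were seen, and 7 of 11 mitochondrial genes were higher. The split depends on the scaling, since 81.3% of calls were higher with TMM scaling and 35.4% with plain library sizes, which moved the median log2 fold change of all genes from -0.03 to -0.33.

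Among the genes higher in CD8 T cells stood those of the CD8 lineage and of naive cells. Runx3, the transcription factor that silences Cd4 and sets the CD8 fate, was measured at 1.08, 1.03, 1.27, 1.12 and 1.19 in CD8 T cells and at 0, 0, 0.0817, 0.403 and 0 in CD4 T cells, which held only 3 UMIs of it (pooled ratio 9.17, 3.11 to 44.7; adjusted p = 0.000474). The levels did not overlap. Dapl1 was 3.01 ± 1.04 against 0.609 ± 0.671 (log2 fold change 2.68, SE 0.38, adjusted p = 0.000162), and Klrd1, a chain of the CD94 receptors, 2.22 ± 0.727 against 0.685 ± 0.659 (log2 fold change 2.60, adjusted p = 0.00168). Ccl5 stood at 23.4, 25.2, 19.3, 26.1 and 24.5 in CD8 and at 9.32, 6.63, 6.13, 24.4 and 5.02 in CD4 T cells (log2 fold change 1.59, adjusted p = 0.000223), where the day 9 CD4 level came close to the CD8 level of its own mouse. Nkg7 (log2 fold change 1.06) and Bcl2, which encodes a survival protein (1.26), were higher too, Bcl2 only under TMM scaling. Nkg7 lost its call without the day 6 mouse, and Bcl2 without day 6 or day 9. In the naive list 3 of 16 genes tested, Dapl1 and Actn1 among them, were higher and none lower.

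Lower in CD8 T cells were genes of activated, helper and regulatory T cells. Itgb1, the integrin beta 1 chain, stood at 0.381, 0.258, 0.317, 0.443 and 0.264 in CD8 and at 3.10, 1.66, 2.94, 3.22 and 1.0 in CD4 T cells (log2 fold change -2.64, adjusted p = 1.92e-05). Id2, a transcriptional regulator, stood at 1.59, 2.16, 1.90, 1.26 and 1.58 against 4.92, 9.12, 4.33, 13.3 and 11.5 (log2 fold change -1.90, adjusted p = 0.000226). Neither gene overlapped between the classes. The CD4 sums of days 3 and 12 held only 12061 and 19933 UMIs, so Itgb1 there rested on few UMIs. Ly6a, which encodes Sca-1, was 0.375 ± 0.113 against 4.26 ± 2.50 (log2 fold change -3.11, adjusted p = 1.92e-05). The co-stimulatory receptor gene Icos (log2 fold change -2.07, adjusted p = 0.000422) and Ikzf2, which encodes Helios of regulatory T cells (-1.82, adjusted p = 0.000809), were lower as well, and 5 of the 6 tested helper and regulatory genes were (median log2 fold change -1.73 against -0.03 over all genes). In the memory list 5 of 14 genes, among them S100a4, Ly6a and Id2, were lower and 1, Ccl5, was higher.

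Neutrophil genes moved with this comparison. Chil3, Camp, Ltf, Ngp, S100a8 and S100a9 were higher in CD8 T cells, with log2 fold changes of 2.47, 2.35, 2.18, 1.76, 1.51 and 1.24, and the 6 neutrophil markers summed to 627 to 1126 per 10000 in CD8 and to 251 to 654 in CD4 T cells. Without the barcodes that held other lineages' RNA, Chil3, Ltf, Ngp, S100a8 and S100a9 were no longer called and the log2 fold change of Camp was 0.39. In that set 134 genes were higher and 59 lower, with 118 and 26 shared with the first fit, which include Runx3, Dapl1, Ccl5, Itgb1, Id2 and Ly6a. Without the day 9 mouse 18 genes were lower.

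Against natural killer cells, the lymphocytes that share the killing genes, CD8 T cells were lower in the killing genes and higher in T cell genes. The 233 natural killer cells (56, 23, 42, 65 and 47) had at least 2 UMIs of Ncr1, Klrb1c and Klre1 and none of the 4 T cell genes, which were left out of the test along with the other gate genes. Of 2385 genes tested 344 were higher in CD8 T cells (14.4%) and 250 lower (10.5%), counts that cannot be set against those of the CD4 comparison, whose sums were smaller. With plain library sizes the split moved from 57.9% to 19.1% higher and the median of all genes to -0.37, which cost Lck, Cd247, Skap1, Foxp1 and Klf2 of the lists below their calls.

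T cell and naive genes were on the CD8 side. Dapl1 had 855 UMIs in CD8 T cells and 1 in natural killer cells (pooled ratio 262, 46.9 to 10351; adjusted p = 3.60e-12). Bcl11b, the transcription factor that commits cells to the T lineage, had 346 against 2 UMIs (ratio 53.0, 14.6 to 439), and Ccr7 299 against 3 (ratio 30.5, 10.3 to 149). Trac was 3.4 ± 0.696 against 0.194 ± 0.177 (log2 fold change 4.61, SE 0.28, adjusted p = 1.81e-10), and Il7r 1.76 ± 0.450 against 0.189 ± 0.144 (log2 fold change 3.35, adjusted p = 5.5e-08). In the T cell receptor and signalling list 11 of 16 genes were higher and none lower, and in the naive list 14 of 17 were higher and 1, the kinase gene Txk, was lower, though not without day 0, 3 or 6 or in the cells without other lineages' RNA. Ly6c2 was the 1 memory gene that was higher in CD8 T cells (log2 fold change 1.45), while 12 of the 17 tested were lower.

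Killing genes were far lower in CD8 T cells. Gzma, which encodes granzyme A, stood at 0.691, 0.0323, 0.0667, 0.797 and 0.0881 in CD8 T cells and at 48.7, 42.7, 28.9, 32.9 and 43.9 in natural killer cells (log2 fold change -6.27, SE 0.28, adjusted p = 1.8e-12). At day 0 the 69 Gzma UMIs of CD8 T cells lay in 16 cells with 26 in a single one, and at day 9 the 45 UMIs lay in 5 cells with 33 in 1, so the 2 higher CD8 levels rested on a few cells. Klra4, an Ly49 receptor gene, had 5 UMIs in all CD8 T cells against 8.69 ± 1.64 per 10000 in natural killer cells (adjusted p = 3.72e-14). Gaps in Ccl5 and Nkg7 were smaller. Ccl5 was 81.0 to 103 in natural killer cells against 19.3 to 26.1 in CD8 T cells (log2 fold change -1.61), and Nkg7 was 19.0 to 35.3 against 5.37 to 7.42 (-1.78). All 8 tested killer lectin-like receptors and 7 of 9 cytotoxic genes were lower, and none was higher. Gzmb (log2 fold change -3.15), Xcl1 (-2.87), Eomes, a T-box factor of killer and memory cells (-2.41), and Il2rb (-1.70) were among the lower genes. All 6 neutrophil markers were higher in CD8 T cells, where they summed to 627 to 1126 against 271 to 654, and their part in the other calls was not tested beyond the set of 716 cells, where 326 genes were higher and 258 lower.

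**Figure D4:**
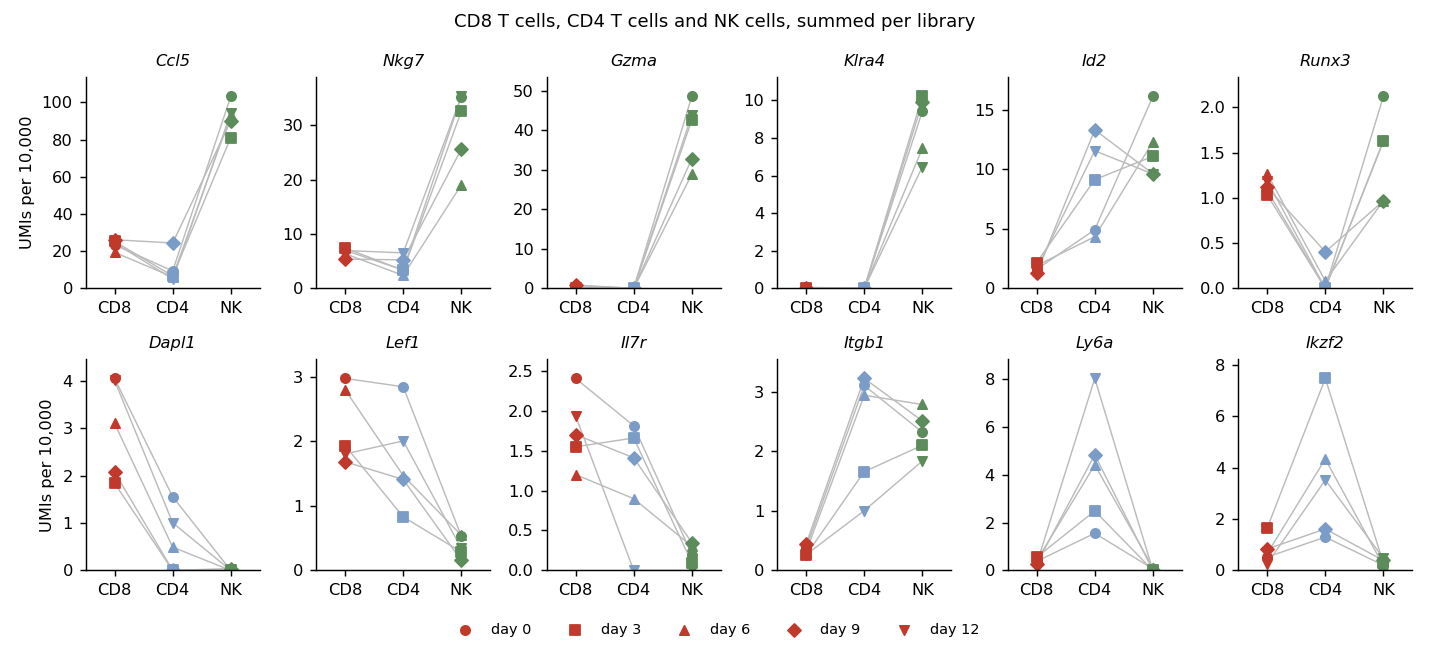
Each panel gives the level of 1 gene, in UMIs per 10000 summed UMIs, in CD8 T cells, CD4 T cells and natural killer cells, and lines join the classes of the same library. Ccl5, Nkg7, Gzma and Klra4 peak in natural killer cells, Dapl1, Lef1 and Il7r are low in them, and Itgb1, Ly6a and Ikzf2 are low in CD8 T cells beside CD4 T cells.

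Each later day was compared with day 0 as a ratio of levels, with no test, since each day is 1 mouse. A gene was counted as higher or lower past 1.5-fold when it had at least 50 UMIs over the pair of libraries and, where it was higher, at least 2 times its level in free RNA. At day 3, 26 of 441 genes were higher (5.9%) and 69 lower (15.6%), and at day 6, 14 of 467 were higher (3%) and 70 lower (15%). At day 9, 7 of 436 were higher (1.61%) and 121 lower (27.8%), and at day 12, 26 of 438 were higher (5.94%) and 55 lower (12.6%). The median ratio over all these genes was 0.912, 0.864, 0.800 and 0.949. Day 0 had the most UMIs, so that genes high at day 0 passed the minimum of 50 more readily than genes high later, which by itself favours lower ratios. In the cells without other lineages' RNA the day 9 counts were 17 and 74.

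Genes of the list of naive and recirculating T cells were lower in sum in each later mouse. Their summed level was 39.0 at day 0 and 29.0, 32.9, 28.5 and 31.2 later, against 27.0, 19.2, 21.3, 19.6 and 21.1 in free RNA, with ratios of 0.743 (0.691 to 0.800), 0.844, 0.729 and 0.799, and of 0.788, 0.891, 0.780 and 0.840 in the cells without other lineages' RNA. In the order of days 6, 2, 5 and 4 of 10 measured naive genes were past 1.5-fold lower and none higher, beside 15.6%, 15%, 27.8% and 12.6% of all measured genes. Without other lineages' RNA the counts were 4 of 11, 1 of 10, 3 of 11 and 3 of 10. Of all measured genes 59 of 464, 61 of 471, 74 of 481 and 45 of 485 were lower in that set. Dapl1 (chr2:59484653-59505020 in mm10) stood at 4.05, 1.84, 3.10, 2.07 and 4.01, with a ratio of 0.454 (0.338 to 0.601) at day 3, 0.512 (0.413 to 0.631) at day 9 and no drop at day 12. Lef1 stood at 2.98, 1.94, 2.80, 1.68 and 1.8, and Il7r at 2.40, 1.55, 1.20, 1.70 and 1.94, with a ratio of 0.499 (0.378 to 0.652) at day 6. S1pr1, the receptor that lets lymphocytes leave tissues, was 1.57 at day 0 and 0.616 at day 12 (ratio 0.392, 0.209 to 0.677). Klf2, which opens S1pr1 to transcription in naive cells, adds most to the sum at 7.42, 4.51, 4.20, 3.90 and 4.93, and free RNA held more of it (14.0, 5.75, 6.30, 5.85 and 10.6). The day 0 mouse had the top level of Lef1, Il7r and S1pr1, and the later mice followed no common order.

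Counts of T cell receptor and signalling genes depended on the barcodes kept. Of 18 measured genes of that list 1, 3 and 7 were past 1.5-fold lower at days 3, 6 and 9, and 3 of 17 at day 12, while 2 were higher at day 3. Without other lineages' RNA 1, 4, 3 and 1 were lower, and among all measured genes 27.8% were lower at day 9. Skap1, an adaptor of T cell receptor signalling, was higher at day 3 (ratio 1.76, 1.35 to 2.27). At day 9 Trac (0.593, 0.491 to 0.715), Ms4a4b (0.598) and Lat, an adaptor below the receptor (0.594, 0.467 to 0.750), were lower, and the ratios of these were 0.644, 0.719 and 0.672 in the cells without other lineages' RNA. Only 3 to 5 memory genes could be measured, of which none was past 1.5-fold lower and 1 was higher, Xcl1 at day 3, and their median ratio was 1.21, 0.771, 1.04 and 0.856. The summed level of the memory list was 51.4, 60.4, 53.9, 64.0 and 59.2. Free RNA held 58.9 to 77.1 of the same genes, which is as high as the cells themselves.

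A few genes stood well above day 0. At day 3 the top ratio was that of Hist1h2ap, a replication-dependent histone gene with near copies, at 12.9 (7.48 to 23.4), and it was 13.8 (8.32 to 24.4) at day 6. Its 68 UMIs at day 3 lay in 7 cells. In the cells without other lineages' RNA, with 5 UMIs at day 0, its ratio was 44.4 at day 3 and 4.09 at day 6. The day 6 level in these cells, 0.246 from 11 UMIs, lay under the 0.853 of free RNA, so it does not show a rise there. Ikzf2 had a ratio of 1.60 (1.05 to 2.42) at day 9, but of 1.42, under the 1.5-fold limit, in the cells without other lineages' RNA. At day 3 it was 1.64, against 0.521 at day 0 (ratio 3.16, 2.1 to 4.74). Its 51 UMIs at day 3 lay in 14 of the 79 cells, with 19 in a single barcode, without which the level was 1.09. That barcode of 16243 UMIs also held all 9 Pdcd1 UMIs of day 3 and 18 UMIs of Hist1h2ap, with 8 of Cd3d, 19 of Trbc2, 2 of Cd8a, 1 of Cd8b1 and none of Ccl5. Pdcd1 encodes the inhibitory receptor PD-1. At day 6 Tox, a factor of chronically stimulated T cells, had a ratio of 2.53 (1.42 to 4.62) from 32 UMIs in 25 cells, and Ccr9 one of 2.1. At day 9 Zbp1, a nucleic acid sensor induced by interferon, had a ratio of 2.18 (1.36 to 3.54), with 42 UMIs in 23 cells, and Gbp7, an interferon-induced GTPase, one of 1.92. Of the interferon-stimulated list 1 of 3 measured genes was higher and 1 lower at day 9, beside 1.61% and 27.8% of all genes. At days 3, 6 and 12, 1, 1 and 2 of 2 were lower and none higher, beside 15.6%, 15% and 12.6% lower of all genes. Without other lineages' RNA 1, 0, 0 and 2 were lower by day, and 1 was higher, at day 9. The summed level of the list had ratios of 1.07, 0.844, 1.24 and 0.869. At day 12 Gm42418, which overlaps a ribosomal RNA repeat, had the top ratio, 2.52 (2.16 to 2.93).

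Among genes with the smallest ratios, Inpp4b, a lipid phosphatase, was at 0.358 at day 3 and the T cell adaptor Themis at 0.354 at day 9. At day 12 Il21r, the interleukin-21 receptor, was at 0.297 (0.0936 to 0.725), and the surface receptor Ly9 and the T cell adaptor Sit1 were both at 0.258 (0.0516 to 0.799) with 3 UMIs each at day 12. Nufip2 (0.274, day 3), Gm5239 (0.302, day 6) and Galnt6 (0.329, day 9) had the lowest ratio of their days. Most of these rested on under 10 UMIs in the later mouse.

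Sums of immediate-early genes and shares of cycling cells were also set beside day 0. The 19 AP-1 and immediate-early genes summed to 36.5, 22.6, 23.4, 23 and 34.2, ratios of 0.620 (0.571 to 0.672), 0.640, 0.629 and 0.936 (0.865 to 1.01). Free RNA held 79.3, 51.0, 59.4, 53.0 and 72.5, in the same order of libraries, and its part in the cells' levels was not tested. In the 804 cells none of the 19 genes passed the limits on UMIs and free RNA of the day comparison, on any day. Fos stood at 4.77, 1.81, 2.15, 2.27 and 3.21. At least 2 UMIs of the cycling genes Mki67, Top2a, Birc5, Cdk1, Ccnb2 and Rrm2 were held by 1 of 333, 6 of 70, 10 of 128, 5 of 119 and 1 of 66 cells without other lineages' RNA, or 0.300%, 8.57% (3.21% to 17.7%), 7.81% (3.81% to 13.9%), 4.20% and 1.52%. The interval of day 0 (0.0076% to 1.66%) lay below those of days 3 and 6. These cells also had their lowest median depth at day 0 (2268 UMIs against 2514 to 3053 later), and its part in the shares was not tested. Among the 63 barcodes with over 5% neutrophil RNA 23 met the same rule. Inhibitory receptors were scarce, with 15 Pdcd1, 11 Lag3, 7 Ctla4, 1 Havcr2 and no Tigit UMIs in the 804 cells. With 2700047 UMIs, a count of 0 allows up to 0.0111 Tigit UMIs per 10000.

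**Figure D5:**
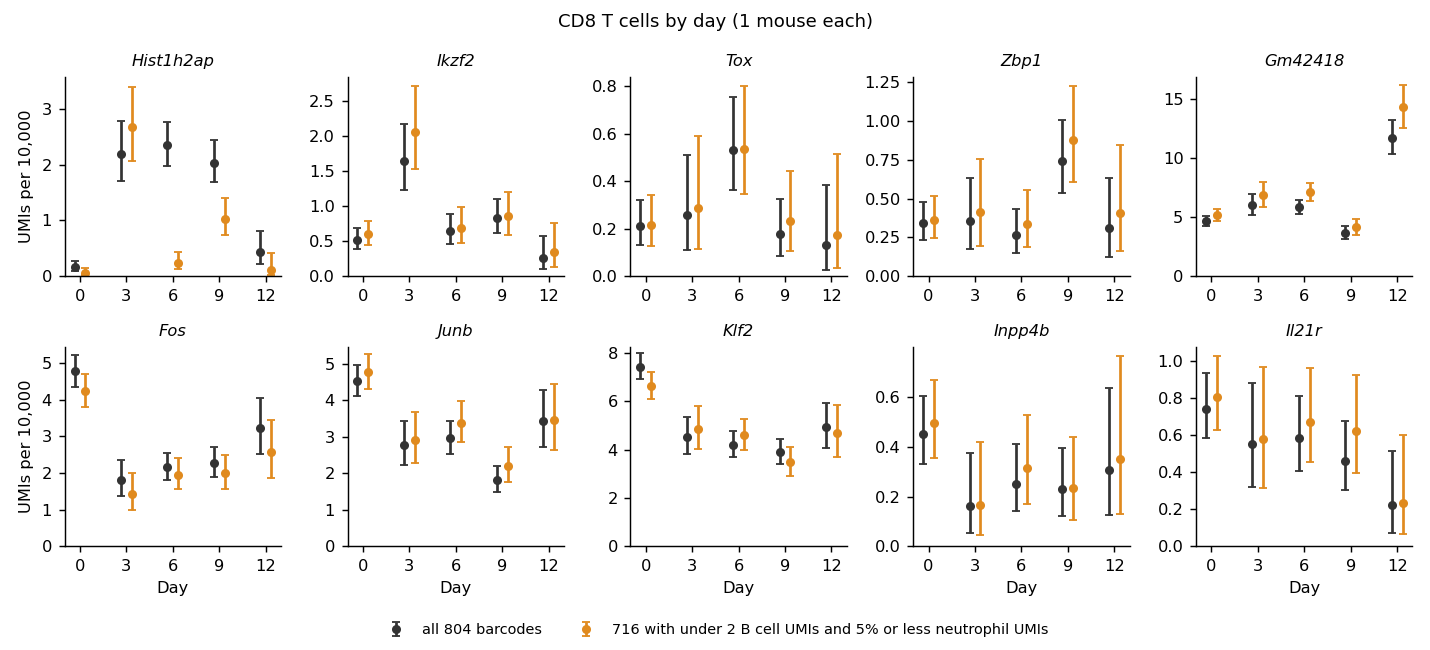
Each panel gives the level of 1 gene, in UMIs per 10000 summed UMIs, in CD8 T cells by day, 1 mouse per day, with Poisson 95% intervals, for all 804 cells and for the 716 without other lineages' RNA. Hist1h2ap and Ikzf2 are high at day 3, Zbp1 at day 9 and Gm42418 at day 12. Fos, Junb and Klf2, with free RNA not subtracted, are high at day 0.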

How the data were processed

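Bone marrow was flushed from femurs and tibias, the bones were crushed and digested with collagenase, and the pooled cells went through red blood cell lysis. The cells were then frozen in serum with dimethyl sulfoxide and sent frozen for the 10x Genomics 3' v2 chemistry. The authors aligned the reads to mm10 and made raw UMI counts per gene and barcode with Cell Ranger 2.1.1, set to expect 6000 cells, and these counts were used as deposited, with empty droplets included and 28692 genes listed. The annotation release is not given in the sources used here. The members and the 25 gene lists were chosen with earlier results of these data known. Gene symbols listed more than once (58) were kept as separate genes. Values of some single genes are not reported here.

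Barcodes with 1 to 100 UMIs stood for free RNA. Sums per library and class were compared with the edgeR 4.0.16 quasi-likelihood test in R 4.3.3 (filterByExpr, TMM, the mouse as a term, Benjamini-Hochberg adjusted p below 0.05), with each mouse as 1 replicate, and levels and intervals were computed in Python 3.11.15. Days were compared by ratios with exact conditional binomial intervals, shares by Clopper-Pearson intervals. Named genes were those of the gate and the lists, the 10 genes with the largest log2 fold change in each direction in each edgeR comparison among called genes with at least 50 summed UMIs, and the 5 highest and 5 lowest ratios of each later day, and the text gives the part of these with a role in T cells or a value a result turns on. Alternatives changed the tool (DESeq2 1.42.0), scaling, filters, mouse term, mice, depth, mitochondrial limit, gate and split gene. The limits on neutrophil and B cell UMIs were chosen after seeing the data.

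Recovery was measured on simulated counts, as a share of the changed genes that passed the filter on low counts. Every gene had the same fixed dispersion in them, and mice differed in depth only. Changes were upward only, in CD8 T cells or in cells with Ccl5, among genes with at least 50 summed UMIs. The spread of the real sums was not simulated, so the shares below hold for the simulated counts and may differ in the data. The edgeR steps called 81.5% of 4-fold and 21.6% of 2-fold changes for CD8 against CD4 T cells (1622 genes tested). They called 100% and 50% against natural killer cells (2356 genes) and 99% and 43.9% for the Ccl5 split (2569 genes). Of unchanged genes 0.181% to 0.27% were called. With genes lost to the filter included, 75 and 11 of 100 changes at each fold were called against CD4 T cells. The counts were 92 and 30 against natural killer cells and 97 and 36 for the Ccl5 split. Promoter windows came from RefSeq (GRCm38.p6).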

Additional observations from a re-analysis of the deposited data

How the results depend on the processing

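No paired analysis was possible between days because each day is 1 mouse; the edgeR fits held the mouse as a replicate block. With no replicate block 128 genes were higher and 30 lower against CD4 T cells, 298 and 204 against natural killer cells, and 16 and 11 in the Ccl5 split. The cause of the changes below was not tested unless the setting itself gives it.

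The CD8 share by day was 4.6%, 0.934%, 1.67%, 1.48% and 0.897% with a mitochondrial limit of 5%, and 4.28%, 1.27%, 2.04%, 1.58% and 0.988% with at least 2 CD8 UMIs, with day 0 highest in both. The share with Ccl5 was 26.9% at day 0 and 24.5% at day 6 after thinning, and 44.2% at day 0 with the mitochondrial limit of 5%.

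Genes higher than day 0 numbered 40, 25, 17 and 51 with a mean over cells, 5, 2, 0 and 6 with at least 100 UMIs, 5, 5, 1 and 2 past 2-fold, and 163, 210, 237 and 137 with no limit on free RNA. Lower genes numbered 26, 31, 60 and 20 with at least 100 UMIs, 18, 12, 25 and 17 past 2-fold, and 274, 232, 333 and 293 with no limit on free RNA. With the mitochondrial limit of 5%, 4 genes were higher at day 6. Without other lineages' RNA 17 were higher and 74 lower at day 9.

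Against CD4 T cells 69 genes were higher and 126 lower without TMM, 218 were higher with no filter, 59 were lower without other lineages' RNA, and 108 to 130 were higher and 18 to 33 lower without 1 mouse. Against natural killer cells 205 were higher and 867 lower without TMM, 557 were higher with no filter, and 135 were lower by DESeq2. In the Ccl5 split 14 were higher and 8 lower by DESeq2, 53 and 33 with no filter, 103 and 56 when Ly6c2 in place of Ccl5 parted the cells (7 and 12 shared with the Ccl5 split), 41 and 37 without other lineages' RNA, and 14 to 22 and 5 to 17 without 1 mouse.

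Over 198 gene results in 2082 refits 1832 kept direction and call, 248 lost the call and 2 reversed: H2-K1 against CD4 T cells (log2 fold change 0.0452 with no filter) and Wfdc17 in the Ccl5 split (0.0771 with Ly6c2). Genes that did not pass the filter of a refit are not counted in it. The Ccl5 split held least well, with 14 calls kept and 14 lost without day 6, 17 and 12 without day 0, and 17 and 11 without day 9. In the simulated counts many 2-fold changes were not called at these depths.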
